A study of Mus musculus with 12 samples.

Results

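The endogenous retrovirus families ERVK and ERV1 were followed in sensory ganglia of mice after a nerve crush, in a deposited table of read counts over short genomic intervals. The members were the intervals whose repeat label was exactly ERVK or ERV1 and which had no nearby gene in the column for 3′ untranslated regions. This gave 9731 of 205977 intervals, of which 7969 were ERVK and 1762 were ERV1. All mice were Adv-Cre//Ribotag, the controls included: a Cre recombinase under the Advillin gene acts in sensory neurons, and there the ribosomal protein Rpl22 gains an HA tag. A sciatic nerve was crushed on 1 side, and the dissociated L4-L6 dorsal root ganglia (DRG) were taken after 3 days. Ribosomes pulled down through the tag (IP) and the starting material (input) were each sequenced for naive and for injured ganglia, which makes 4 groups of 3 libraries. Both kinds of ganglia came from the same animals, so the naive ganglia belong to mice with a crush elsewhere. The design names 4 mice, and strain, sex and age are not given in the labels. The Cre tags ribosomes of sensory neurons only, while the ganglia also hold satellite glia, Schwann cells, macrophages and fibroblasts.

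An endogenous retrovirus is the remnant of a past germline infection, with viral genes between 2 long terminal repeats (LTRs). The upstream LTR holds the promoter, and the downstream LTR holds the polyadenylation signal AATAAA that ends the transcript. ERV1 includes relatives of the murine leukemia viruses, and ERVK includes the intracisternal A particles and the early transposons, both still active in mice. Most copies are kept silent by histone H3 lysine 9 methylation, placed by Setdb1 with its cofactor Trim28, and by DNA methylation.

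The intervals are small windows, not whole elements. In 98.1% of the members the end was 25 bases after the start, and the widest spanned 90. Joined over gaps of up to 1000 bases on 1 strand, they formed 8496 loci. By position, 62.8% of ERVK and 65.9% of ERV1 members lay outside the genes annotated in GENCODE M21. A further 17.6% of ERVK and 14.6% of ERV1 lay in a gene on the opposite strand. Positions are on mm10 as deposited, and whether they count from 0 or 1 is not given.

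Sequences could be read for the 461 members of 25 bases that lie within an annotated exon on either strand, each on the interval's own strand, from the GENCODE M21 transcripts (GRCm38). AATAAA stood in 42.6% of the 129 ERV1 and in 24.4% of the 332 ERVK sequences, against 27.4% of 37586 sequences over all intervals. In ERVL-MaLR, another group of endogenous retroviruses, it stood in 35.8% of 405 sequences, and in L1 in 24.6% of 487. Its reverse complement TTTATT stood in 10 of the 461 and in 2.78% of all. In the sequences below AATAAA is in capitals. The windows opposite Cnbd2 and Cep85 and those in Gm42067 and Map2k1 are shown because their counts return in the results, the one in Gm43305 for the signal at its end, and those in Gm29562 and Gm37758 for a run that recurs among ERVK. The other reading of the positions would move each window by 1 base.
ERV1 opposite Cnbd2, chr2:156356639-156356664, minus strand: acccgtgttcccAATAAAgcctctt
ERV1 opposite Cep85, chr4:134164591-134164616, plus strand: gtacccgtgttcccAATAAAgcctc
ERV1 in an exon of Gm43305, chr14:54292463-54292488, minus strand: ccgggtacccgtgttcaccAATAAA
ERVK in an exon of Gm42067, chr19:5914786-5914811, plus strand: gggagggttaagaaccccaAATAAA
ERVK in an exon of Gm29562, chr9:88828384-88828409, plus strand: accccataaagatataagcAATAAA
ERVK in an exon of Gm37758, chr9:33160637-33160662, minus strand: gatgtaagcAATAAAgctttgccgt
ERV1 in an exon of Map2k1, chr9:64214515-64214540, minus strand: cgaggcctttctgacgcagaagcag
The first 2 hold the same run around the signal at slightly different offsets. The run AATAAAGCCT stood in 8 of the 129 ERV1 sequences, in 0 ERVK sequences and in 36 of all 37586. The most frequent 10-base run with the signal among ERV1 was AATAAAAATC, in 9 of 129, in 0 ERVK sequences and in 49 of all. The most frequent 10-base run with the signal among ERVK was AAGCAATAAA, in 14 of 332, in 0 ERV1 sequences and in 58 of all. These runs were picked for being frequent in their family, which makes a share above that of all intervals likely. The Map2k1 window, one of the most abundant ERV1 members, held no AATAAA and lies in an exon on the strand of that gene.

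Most members held few or no counts, and the share without a count was near that of all intervals. Of the 9731, 4229 (43.5%) had no count in any library, against 85606 (41.6%) of all 205977 intervals. Over the 12 libraries 1121 members had 20 or more counts, against 37656 of all intervals. How reads that match many copies were counted is not given, so a window without counts is not shown to be silent. Together the members took 340272 counts. The 10 most abundant ERV1 intervals held 50.8% of all ERV1 counts, while the 10 most abundant ERVK intervals held 21.3% of ERVK counts. Only 461 members (4.74%), 295 ERVK and 166 ERV1, passed the filter on low counts and could be tested, against 11.2% of all intervals. No count below therefore speaks for all members. An interval can pass this filter through a single group in which it is high.

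Library sizes came from the gene count table, with totals of 33508842 to 36338423 counts in naive IP libraries, 41076255 to 41990355 in injured IP, 29436945 to 33015740 in naive input and 29477848 to 31417170 in injured input. Levels are in CPM, counts scaled to these totals after a correction for composition. The input libraries numbered 3 were the lowest of their group in the summed level of both families, and injured input 3 was the lowest of all 12. Summed marker genes of sensory neurons were at 20299 to 21708 CPM in IP and 15527 to 18270 CPM in input. Markers of injured neurons (Atf3, Sprr1a, Gal, Sox11, Npy and Gap43) rose from 171 to 253 CPM in naive IP to 1532 to 1611 CPM in injured IP, and all 6 passed the test.

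Identical counts at different places were common among the members. Of the 1121 members with 20 or more counts, 111 (9.90%) had exactly the same count as another interval in each of the 12 libraries, and of the 127 with 500 or more counts, 22.8% did. Other repeats shared this: with 20 or more counts it held for 6.93% of ERVL-MaLR, 7.86% of L1 and 4.17% of B2 windows, and with 500 or more counts for 30.6% of ERVL-MaLR windows. Among intervals without a repeat label the share was 0.246% of 26379 with 20 or more counts. The ERV1 intervals chr4:133101510-133101535, outside genes, and chr8:90891845-90891870, in an intron of the chromatin remodeler Chd9, both held 803, 949 and 839 counts in naive IP, 818, 931 and 885 in injured IP, 658, 882 and 776 in naive input and 663, 679 and 584 in injured input. Their counts are therefore 1 measurement listed at 2 places, and which copy made the RNA cannot be told from them. Of the 10 most abundant ERV1 intervals, 8 were such pairs of chromosome 4 and chromosome 8 windows.

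Pairs of windows on the same strand, 3 to 10 kb apart, showed a second regularity. Of 85 such pairs with at least 100 counts each, 31 had between 1.9 and 2.1 times as many counts at the downstream window. In these 31 the ratio also stayed between 1.6 and 2.4 in every library. Some further pairs met the ratio in summed counts only and are not among the 31. An example is chr13:14021499 with 14024939, at 1.99 in all but 0 to 15 by library. The reverse was seen in 0 pairs. The 31 were 10 of 23 ERV1 pairs and 21 of 62 ERVK pairs. With pairs of equal counts taken once, they were 29 of 80, and since pairs share windows the 85 have 56 different downstream windows. On chromosome 8 the window at 90886664 held 4729 counts and the one 5181 bases downstream held 9467, and the ratio lay between 1.99 and 2.01 in every library. An ERVK pair on chromosome 13, at 43277796 and 43284555, held 2534 and 5144 counts. An ERVK pair on the minus strand of chromosome 11 held 2207 counts at 106033276 and 4452 counts at 106028328, downstream in the direction of that strand. Windows of such a pair are not independent measurements of the element.

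**Figure D1:**
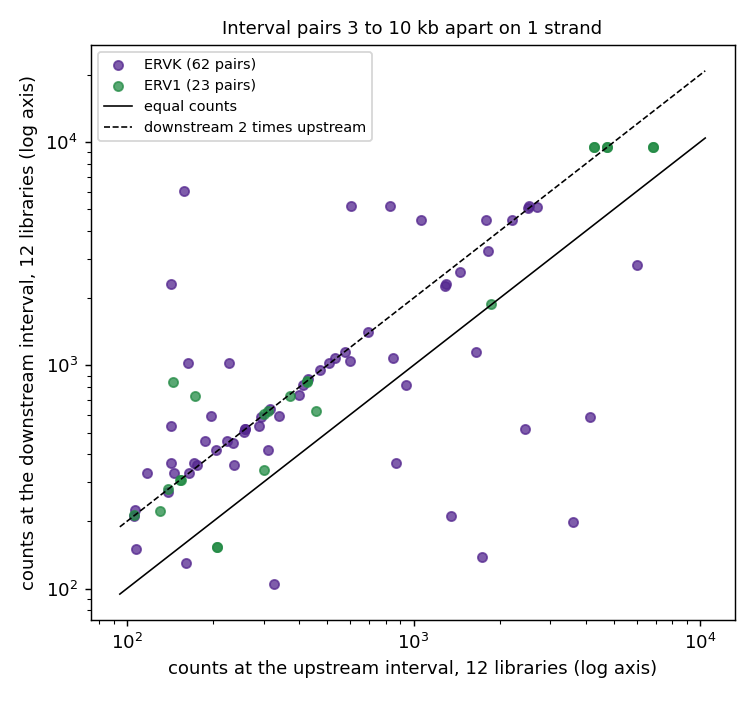
Counts summed over 12 libraries at the upstream (x axis) and downstream (y axis) window of 85 same-strand pairs of ERVK and ERV1 windows 3 to 10 kb apart, both axes logarithmic. Each point is a pair, the solid line marks equal counts and the dashed line a downstream count 2 times the upstream one. Along the dashed line, 31 pairs lie within 1.9 to 2.1 times and also keep a ratio near 2 in every library.

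At the level of whole families, neither injury nor the ribosome pull-down moved the summed signal much. Summed over its 7969 members, ERVK stood at 551, 529 and 548 CPM in naive IP and at 535, 494 and 491 CPM in injured IP. Its input levels were 596, 541 and 499.6 CPM before injury and 520.4, 493 and 427 CPM after it. The groups overlapped in all 4 comparisons. ERV1 stood at 318, 294 and 293 CPM in naive IP and at 293, 290.3 and 286 CPM in injured IP. Its input levels were 309, 357 and 285 CPM before injury and 318, 351 and 256 CPM after it. The IP groups did not overlap, by a small margin (301.7 ± 13.7 and 289.8 ± 3.30 CPM, SD, n = 3; −0.06 log2), and the other 3 comparisons of ERV1 overlapped.

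Within ERV1, the 10 most abundant windows and the rest went opposite ways after injury in IP. Most of the 10 are the equal pairs of chromosomes 4 and 8 described above, and another lies in an exon of Map2k1. Their sum therefore holds few separate measurements. The 10 most abundant windows summed to 188, 178 and 172 CPM in naive IP and to 158, 156 and 156 CPM in injured IP, and the 2 groups did not overlap. In input these 10 stood at 144, 174 and 141 CPM before and at 129, 136 and 113 CPM after injury, also without overlap. The other 1752 windows summed to 129, 116 and 121 CPM in naive IP and to 134, 134 and 131 CPM in injured IP, again without overlap (+0.12 log2, against −0.06 with all members). In input these 1752 windows stood at 165, 183 and 144 CPM before and at 189.5, 215 and 143 CPM after injury, with overlap. They were lower in IP than in input in naive ganglia, 122 ± 6.43 against 164 ± 19.4 CPM (−0.42 log2), and the groups did not overlap.

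**Figure D2:**
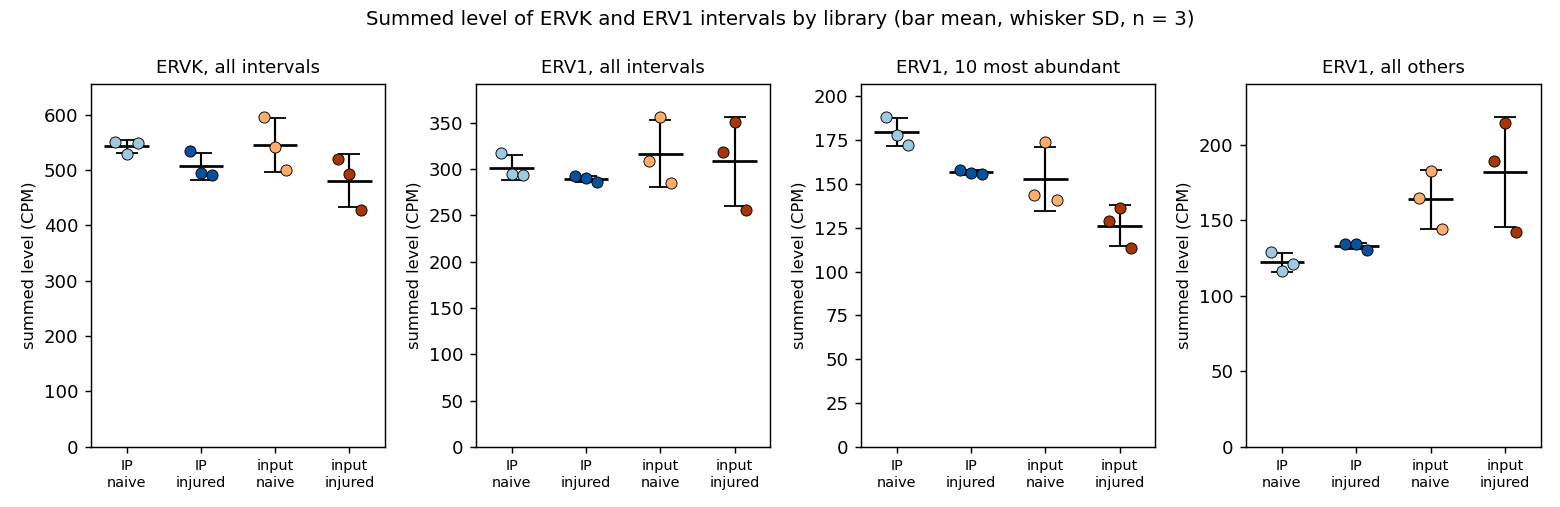
Summed level in CPM of all ERVK members, all ERV1 members, the 10 most abundant ERV1 windows and the other 1752 ERV1 windows in each of 12 libraries (points), by group on the x axis, with the group mean (bar) and SD (whisker, n = 3). The last 2 panels differ in order: the 10 windows are highest in naive IP and the others are highest in input.

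The question of the first comparison is which retroviral windows changed in ribosome-bound RNA of sensory neurons after the crush. With edgeR's quasi-likelihood test over all 23162 intervals tested, 15 members were higher and 0 lower in injured IP, where 2.01% of all intervals were higher and 0.38% lower (2.39% in either direction). The 15 were 14 of 166 ERV1 windows (8.43%) and 1 of 295 ERVK windows, at 10 loci and 1 locus. The median change was 0.18 log2 over the tested ERV1 windows, −0.09 over ERVK and −0.02 over all intervals. All 15 had 3 and 3 libraries that did not overlap, which their choice by the test makes likely. The replicate number was also fitted as a block, since same-numbered libraries of a fraction correlated over genes. With this block 21 were higher and 8 lower, and all of the 15 were among them. Without IP naive 1, IP naive 2 or IP injury 3 the count fell to 9, 8 and 9, and 8 of the 15 were called whichever library was left out. Without both input libraries numbered 3 it was 25.

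The largest changes lay in a stretch of chromosome 13 outside annotated genes, on the plus strand, 16119 bases and more from Fgfr4, a fibroblast growth factor receptor. The ERV1 window chr13:55186470-55186495 held 1, 2 and 8 counts in naive IP and 100, 120 and 114 in injured IP. In input it held 15, 22 and 9 counts before injury and 64, 94 and 46 after it. It was nearly absent from the naive IP. Every injured library was above every naive library in both fractions, which the choice of called windows without overlap makes likely. The level went from 0.105 ± 0.106 to 2.82 ± 0.227 CPM in IP (4.67 log2, SE 0.43, adjusted p = 2.48e-07), and from 0.474 ± 0.189 to 2.09 ± 0.673 CPM in input (2.13 log2, adjusted p = 0.000897).

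Its neighbour chr13:55184878-55184903 held 2, 3 and 2 counts in naive IP and 63, 78 and 72 in injured IP, with 6, 17 and 6 in naive and 53, 85 and 39 in injured input. The groups were again apart in both fractions, which the same choice makes likely. The change was 4.64 log2 in IP (SE 0.458, adjusted p = 5.98e-07) and 2.59 log2 in input (SE 0.366, adjusted p = 0.000132). A further window of the stretch, chr13:55186559-55186584, rose by 3.98 log2 in IP and 2.18 log2 in input. All 3 windows were called in both fractions in each fit without 1 library. Fgfr4 itself was too low to test, at 0 CPM in injured IP.

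A second group of ERV1 windows lay in an intron of Abi1, on the strand of that gene, which encodes an actin regulator of the WAVE complex. The window chr2:23012333-23012358 held 7, 8 and 3 counts in naive IP and 47, 54 and 65 in injured IP, with 16, 16 and 5 in naive and 62, 82 and 36 in injured input. It rose by 2.96 log2 in IP (adjusted p = 0.000138) and by 2.25 log2 in input (SE 0.38, adjusted p = 0.00111). The window chr2:23011208-23011233 held 2, 2 and 0 counts in naive IP and 37, 55 and 30 in injured IP (4.59 log2, SE 0.855, adjusted p = 0.00557). In input it held 7, 13 and 5 counts before injury and 27, 48 and 3 after it, and was not called (1.60 log2, adjusted p = 0.225) except with the replicate block (1.45 log2, adjusted p = 0.0454). A window between them, chr2:23012019-23012044, rose by 2.13 log2 in IP. The Abi1 gene was at 79.0 ± 0.778 CPM in naive and 88.4 ± 6.52 CPM in injured IP, a change of 0.16 log2 that was not called (adjusted p = 0.549).

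On chromosome 8, 14415 bases from 1700104B16Rik, the ERV1 window chr8:33716094-33716119 held 1, 3 and 2 counts in naive IP and 29, 29 and 27 in injured IP. It held 9, 8 and 6 counts in naive input and 26, 42 and 19 in injured input. The rise was 3.53 log2 in IP (adjusted p = 0.000131) and 1.89 log2 in input (SE 0.406, adjusted p = 0.0101), the latter lost without input injury 2 (adjusted p = 0.0828). The adjoining window chr8:33716171-33716196, with 2, 0 and 1 counts in naive and 12, 28 and 22 in injured IP, rose by 3.99 log2 (adjusted p = 0.0173). That call was lost without IP naive 1, 2 or 3 or IP injury 2 or 3, at adjusted p of 0.0564 to 0.118. In input its change of 1.87 log2 was not called (adjusted p = 0.154) except with the replicate block (1.96 log2, adjusted p = 0.0283).

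The ERV1 window chr10:61494835-61494860 lies opposite Lrrc20, a gene for a leucine-rich repeat protein. It held 2, 8 and 6 counts in naive IP and 41, 34 and 50 in injured IP, with 6, 9 and 15 in naive and 43, 31 and 21 in injured input. The change was 2.73 log2 in IP (adjusted p = 0.000455) and 1.64 log2 in input (SE 0.405, adjusted p = 0.0246). The input call was lost without input naive 1 or 2 or input injury 1 or 2, at adjusted p of 0.0583 to 0.125. Lrrc20 rose as well, by 0.61 log2 in IP (SE 0.078, adjusted p = 0.000117) and 0.58 log2 in input. How reads were assigned to a strand is not given, so reads of the gene and of the window cannot be fully told apart.

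In AI506816, on chromosome 5, 3 ERV1 windows were called higher in IP, of which 1 in an exon and 1 in an intron are given here. The window at 23701784 rose by 1.12 log2 (adjusted p = 0.0494) and the one at 23708794 by 1.30 log2 (adjusted p = 0.0401). The first call was lost in 10 of the 12 fits without 1 library and the second in 5, at adjusted p of up to 0.207 and 0.198. Both windows are named after their values were seen. The AI506816 gene itself went from 0.289 ± 0.129 to 1.08 ± 0.181 CPM in IP (1.91 log2, SE 0.380, adjusted p = 0.0033) and rose by 1.13 log2 in input (adjusted p = 0.0396). The windows lie on the strand of that gene, so reads of the gene and retroviral reads cannot be told apart there.

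A call at chr2:68555713, described with the fractions, was lost in 6 of the fits without 1 library. Among the remaining calls, the ERV1 window chr13:62091202-62091227 in an intron of Gm48228 held 0, 1 and 2 counts in naive and 12, 13 and 10 in injured IP. Its rise of 3.19 log2 (SE 0.755, adjusted p = 0.0207) was lost without IP naive 1 or 2 or IP injury 1 or 2, at adjusted p of 0.0664 to 0.124. The 1 ERVK call was chr15:100820286-100820311, opposite Slc4a8, a sodium-coupled bicarbonate transporter. It held 3, 1 and 1 counts in naive and 15, 18 and 15 in injured IP, but 5, 4 and 4 in naive and 8, 2 and 5 in injured input. The rise of 2.95 log2 in IP (SE 0.686, adjusted p = 0.0178) was lost without IP naive 2 or 3 or any injured IP library, at adjusted p of 0.0593 to 0.136. Slc4a8 itself rose in IP, by 1.37 log2 (adjusted p = 7.76e-06), and also in input, by 1.18 log2 (adjusted p = 4.62e-05).

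**Figure D3:**
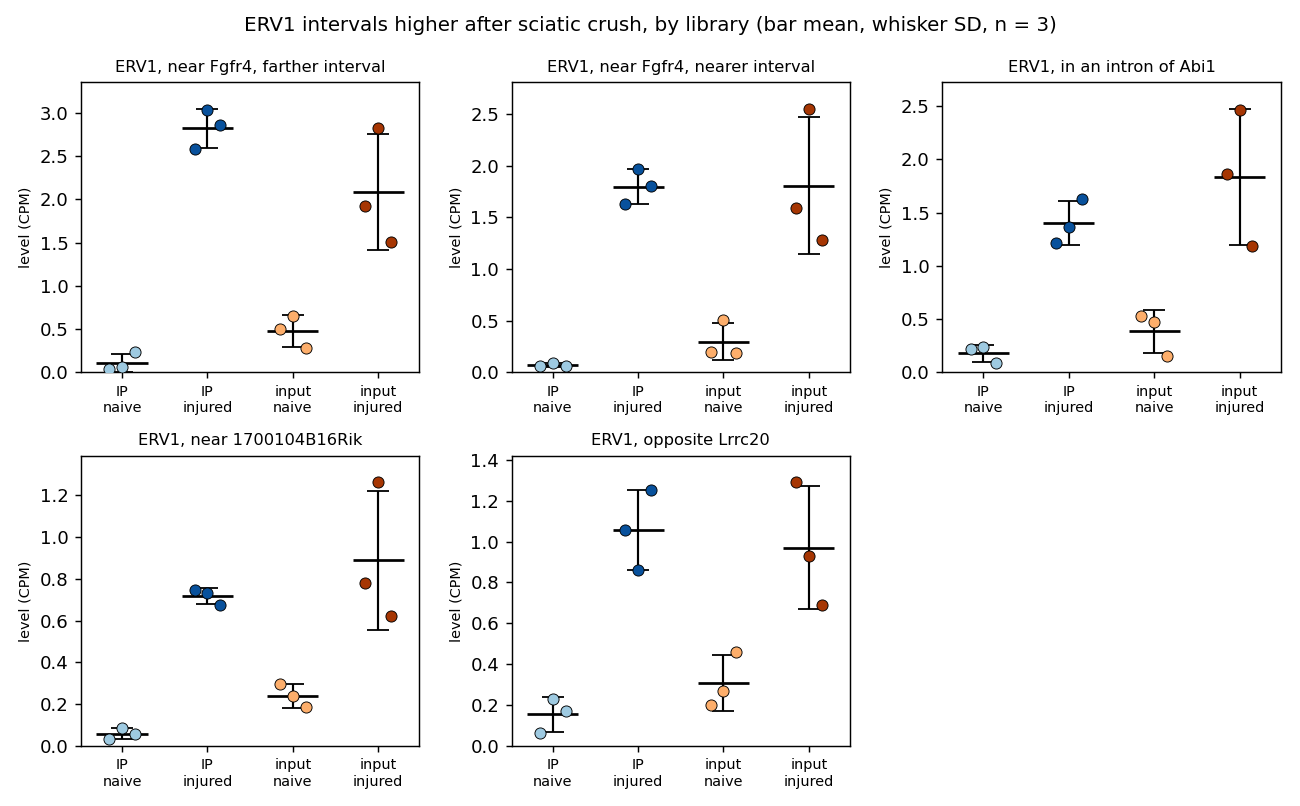
Level in CPM of 5 ERV1 windows that were higher after the crush in IP, in each of 12 libraries (points) by group, with the group mean (bar) and SD (whisker, n = 3). In all 5 panels the injured IP libraries lie above the naive IP libraries, and the 2 windows near Fgfr4 go from 0.105 to 2.82 and from 0.069 to 1.80 CPM.

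In input RNA, which holds all cells of the ganglion, 11 members were higher and 1 lower after injury, where 1.89% of all intervals were higher and 1.53% lower (3.42% in either direction). These were 10 ERV1 windows higher and, in ERVK, 1 higher and 1 lower. Of the 14 ERV1 windows higher in IP, at 10 loci, 7 were also among the 10 higher in input, at 8 loci. The fractions share no library, but input is the starting material of the pull-down, so they cannot be taken as independent. With the replicate block 14 members were higher and 16 lower, with all of the 12 among them. The count was 6 when input naive 1 was left out, 6 without input naive 2 and 7 without input injury 2, and without both input libraries numbered 3 it was 15.

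The calls in input that IP did not share were weakly held. The ERV1 window chr5:30206772-30206797, 1050 bases from the adhesion receptor gene Adgrf3, held 4, 7 and 0 counts in naive and 25, 19 and 20 in injured input (2.5 log2, SE 0.641, adjusted p = 0.0307). The call was lost without input naive 1 or 3 or any injured input library, at adjusted p of 0.0522 to 0.0906. Its change in IP (2.86 log2, adjusted p = 0.0907) was called only with the replicate block (2.89 log2, adjusted p = 0.049998). The ERVK call upward was chr19:5914786-5914811 in an exon of Gm42067, whose sequence stands above and which is named after its values were seen. It held 10, 8 and 10 counts in naive and 26, 17 and 32 in injured input (1.41 log2, adjusted p = 0.0459). The ERVK call downward was chr3:116822925-116822950, with 18, 20 and 14 counts in naive and 6, 2 and 2 in injured input (−2.35 log2, SE 0.649, adjusted p = 0.046). Each of these ERVK calls was lost in 11 of the 12 fits without 1 library, at adjusted p of up to 0.208 for the first (without input injury 3) and up to 0.176 for the second (without input injury 2).

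Macrophage markers also rose with injury. Of the 10 genes in that list, 9 were in the table and 3 rose in IP and 5 in input, and their summed level went from 17.97 to 43.1 CPM in naive IP to 32.1 to 99.5 CPM in injured IP. In input it went from 202 to 260 CPM to 376 to 477 CPM. None of the 9 was at 0 throughout. Of 8 satellite glia markers 1 rose in each fraction, and of 6 tested lymphocyte markers 1 rose in IP. Schwann cell, fibroblast and endothelium markers had 0 genes called with injury in either fraction. The part of macrophage RNA in the ERV1 rises was not tested. In bulk samples, more cells of a type and more RNA per cell cannot be told apart.

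The difference between the fractions in their response to injury was tested as an interaction, which asks whether the change in IP exceeds that in input. No member was called by edgeR, nor any other of the 23162 intervals (0% called), and DESeq2 and limma-voom called 0 members as well. At an unadjusted p under 0.05 there were 14 members and 788 intervals in all. The Fgfr4 stretch had the values 2.54 log2 for chr13:55186470 (SE 0.601, unadjusted p = 0.000356) and 2.05 log2 for chr13:55184878 (SE 0.655, unadjusted p = 0.00481), with an adjusted p of 1.00 for both.

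The comparison of IP with input asks which retroviral RNA is bound by neuronal ribosomes. In naive ganglia 5 members were higher in IP and 48 lower, where 2.29% of all intervals were higher and 10.2% lower (12.5% in either direction). The 48 were 44 of 166 ERV1 windows (26.5%) at 36 loci and 4 of 295 ERVK windows (1.36%). In injured ganglia 9 were higher and 45 lower, where 4.79% and 9.69% of all intervals were (14.5% in either direction), and the 45 were 43 ERV1 and 2 ERVK windows. The ERV1 windows lower in both states numbered 30, which is 68.2% of the naive and 69.8% of the injured list. The 2 states share no library, but their ganglia came from the same animals, so they cannot be taken as independent. The median change of ERV1 was −0.87 log2 in naive ganglia and −0.34 after injury, against 0.01 and 0.12 for ERVK and −0.05 and 0.10 for all intervals. The libraries of the groups did not overlap in 52 of the 53 calls in naive ganglia and in 50 of the 54 after injury. Such separation is likely among windows chosen by the test and adds no separate evidence. The difference between the families was not tested.

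Most of the ERV1 windows lower in IP were rare ones, but so were most of those tested, 120 of 166. Below a mean of 1 CPM, 35 of 120 ERV1 windows were lower in naive IP and their median was −1.24 log2. Among all 13052 tested intervals below 1 CPM, 10.9% were lower and the median was −0.18 log2. At 1 CPM or more, 9 of 46 ERV1 windows (19.6%) were lower and the median was 0.09 log2. Among all 10110 tested intervals at that level, 9.25% were lower and the median was 0.05 log2. ERVK windows had 3 of 195 lower below 1 CPM and 1 of 100 above. Of the 166 tested ERV1 windows 40 lay in a gene on its own strand, and of these 0 were lower in naive and 2 in injured IP. The 44 lower in naive IP were 31 outside genes and 13 opposite a gene.

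**Figure D4:**
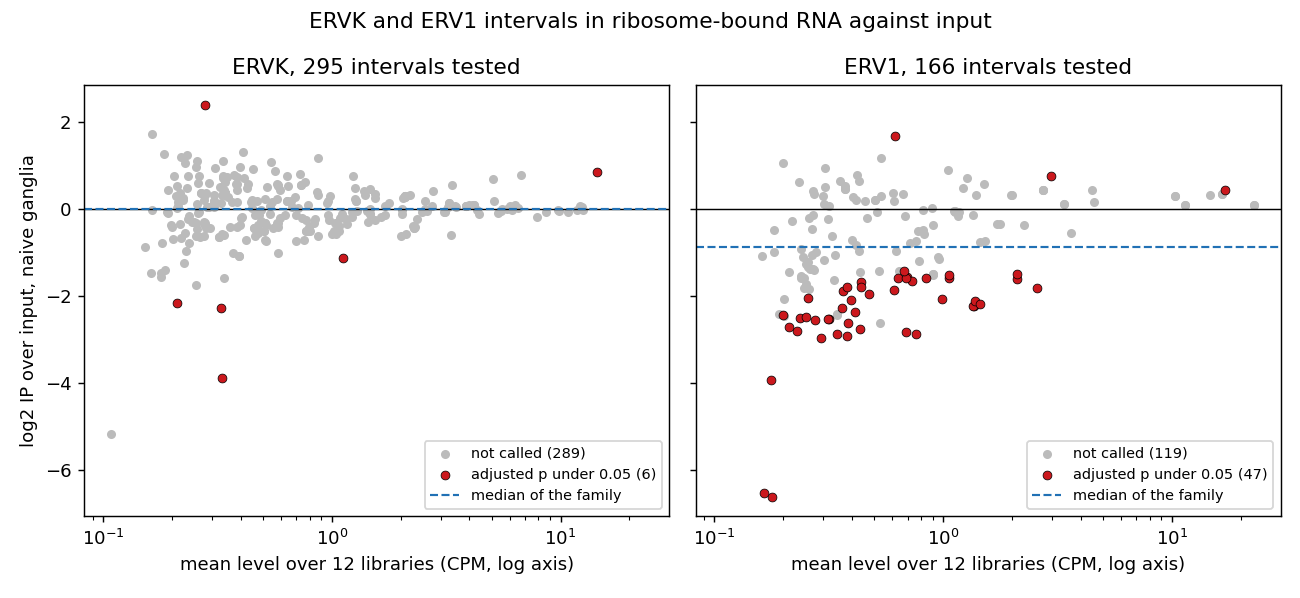
Log2 change of IP over input in naive ganglia (y axis) against the mean level over 12 libraries in CPM (x axis, logarithmic) for each of 295 tested ERVK and 166 tested ERV1 windows, with those at an adjusted p under 0.05 in red. The ERV1 median (dashed) is at −0.87 and that of ERVK at 0.01 log2.

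Near-identical windows gave near-identical values here too. The ERV1 windows opposite Cep85 and opposite Cnbd2, whose sequences are printed above, lie on chromosomes 4 and 2. The Cep85 window held 32, 40 and 18 counts in naive IP and 101, 76 and 64 in naive input, and the Cnbd2 window held 32, 40 and 16 and then 110, 78 and 64. They were lower in naive IP by −1.50 log2 (SE 0.331, adjusted p = 0.00478) and −1.60 log2 (SE 0.345, adjusted p = 0.0045), and in injured IP by −1.60 and −1.61 log2. The window chr2:68555713-68555738, 784 bases from Gm13597, held 28, 27 and 45 counts in naive IP and 115, 83 and 136 in naive input (−1.82 log2, SE 0.234, adjusted p = 1.58e-05). In injured ganglia it held 72, 74 and 74 counts in IP and 135, 126 and 122 in input (−1.08 log2, adjusted p = 0.0014). These 3 windows are named after their values were seen.

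The deepest depletions were at windows with few counts. The ERV1 window chr13:21764073-21764098 held 0 counts in all naive IP libraries and 12, 21 and 1 in naive input. With counts pooled over each group, it was at least 11.95-fold lower in IP against a floor of 3 counts. That fold rests on input naive 1 and 2, since input naive 3 held 1 count. The window chr4:8396773-8396798, with 0 counts in naive IP and 11, 20 and 1 in naive input, was at least 11.2-fold lower by the same floor. The counts of these 2 windows are nearly the same, and whether they are separate measurements cannot be told. Of a cluster on chromosome 13 opposite Tbce, a tubulin folding cofactor, chr13:14020687-14020712 held 0, 2 and 7 counts in naive IP and 15, 27 and 25 in naive input (−2.92 log2, SE 0.609, adjusted p = 0.00237). Its neighbour chr13:14022443-14022468 held 5, 3 and 9 counts in injured IP and 19, 36 and 14 in injured input (−2.27 log2, SE 0.526, adjusted p = 0.00494). Tbce was not lower in IP, at 0.15 log2 (adjusted p = 0.273). A pair of windows opposite Ankrd12, an ankyrin repeat nuclear protein, gave −2.95 log2 for chr17:66017829 in naive (SE 0.621) and −3.05 log2 for chr17:66017718 in injured ganglia (SE 0.548). Ankrd12 itself was not called in either state.

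In injured ganglia the window chr18:26005557-26005582, outside genes, held 4, 2 and 3 counts in IP and 32, 34 and 14 in input (−3.36 log2, SE 0.556, adjusted p = 0.000242). The window chr11:86814279-86814304, 6533 bases from Dhx40, an RNA helicase gene, held 5, 7 and 3 counts in IP and 28, 26 and 31 in input (−2.76 log2, SE 0.441, adjusted p = 0.000173). The window chr13:67888756-67888781 held 1, 10 and 2 counts in IP and 21, 13 and 20 in input (−2.31 log2, SE 0.612, adjusted p = 0.0124), a call lost without IP injury 1 (adjusted p = 0.0706) or IP injury 3 (adjusted p = 0.0705). Among ERVK, 3 of the 4 windows lower in naive IP were chr7:79337147, chr3:116822925 and chr5:143009377, named after their values were seen, at adjusted p of 0.0253 to 0.0326, and each call was lost without 4 or 5 of the libraries. The 2 lower in injured IP were chr14:120772896, lost in 10 of the 12 fits without 1 library, and again chr5:143009377, lost in 4.

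RNA of other cells and of the nucleus was lower in IP in the same libraries. All 8 satellite glia, all 8 Schwann cell, all 9 macrophage and all 7 fibroblast markers tested were lower in naive IP, with 0 genes at 0 throughout. Their summed levels in naive IP and naive input were 520 to 972 and 4299 to 4587 CPM for satellite glia, 724 to 1033 and 3875 to 5127 CPM for Schwann cells, and 116 to 209 and 1149 to 1559 CPM for fibroblasts. Nuclear RNAs such as Malat1 and Neat1 summed to 688 to 1272 CPM in naive IP and 5074 to 5987 CPM in naive input, and 7 of 7 tested were lower. Endothelium markers (7 of 7) were lower as well, and so were 5 of 6 lymphocyte and 2 of 2 erythrocyte markers tested, with 3 of the 5 erythrocyte genes at 0 in every library. The part of other cells and of nuclear RNA in the ERV1 depletion was not tested.

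A few windows were higher in IP. The most abundant ERVK window, chr7:48161114-48161139, lies 6844 bases from Mrgprb5, a receptor gene of the Mas-related family. It held 788, 697 and 746 counts in naive IP, 686, 547 and 577 in injured IP, 428, 433 and 306 in naive input and 309, 307 and 184 in injured input. It was higher in IP in both states without overlap, by 0.86 log2 before injury (SE 0.168, adjusted p = 0.00172) and 0.90 log2 after it (SE 0.17, adjusted p = 0.00109), and no single library ended either call. Mrgprb5 went the other way in naive ganglia, at −0.67 log2 (adjusted p = 0.0142). The abundant ERV1 window in an exon of Map2k1, a kinase of the MAP kinase cascade, held 694, 602 and 672 counts in naive IP and 419, 500 and 469 in naive input. Its rise of 0.43 log2 (SE 0.116, adjusted p = 0.0153) was lost without IP naive 1, IP naive 3 or input naive 1, at adjusted p of 0.0538 to 0.116. The Map2k1 gene was itself higher in naive IP, by 0.29 log2 (adjusted p = 0.00187). The window lies in that exon on the strand of the gene, so reads of the Map2k1 transcript cannot be told apart from retroviral reads there.

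A further pair of ERV1 windows was higher in naive IP within exons. The one in Ablim1, an actin-binding LIM protein, at chr19:57043870-57043895, held 136, 108 and 154 counts in naive IP and 53, 83 and 89 in naive input (0.75 log2, SE 0.2, adjusted p = 0.0142). The one in Gm20186, at chr6:18846214-18846239, held 28, 20 and 45 counts and 9, 12 and 6 (1.69 log2, SE 0.41, adjusted p = 0.00772). The first was lost without IP naive 1, IP naive 3 or input naive 1 (adjusted p = 0.073 to 0.0904), and the second without IP naive 3 (adjusted p = 0.0743). The Ablim1 gene was itself higher in naive IP, by 0.40 log2 (adjusted p = 0.000255). Both windows lie on the strand of their gene, so reads of the gene's transcript cannot be told apart from retroviral reads there. The ERVK window chr15:74360797-74360822 held 22, 25 and 22 counts in naive IP and 4, 0 and 8 in naive input (2.41 log2, SE 0.659, adjusted p = 0.0175), but 2, 12 and 4 in injured IP and 6, 4 and 6 in injured input. Its call was lost without IP naive 1 or 3 or input naive 1 or 2, at adjusted p of 0.0504 to 0.0601.

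In injured ganglia 6 ERVK and 3 ERV1 windows were higher in IP. The ERVK window chr2:104674507-104674532, in an intron of Tcp11l1, held 139, 164 and 182 counts in injured IP and 61, 76 and 78 in injured input (0.88 log2, SE 0.202, adjusted p = 0.00454), and no single library ended the call. A pair of ERVK windows near Gm16001, chr5:124104555 and chr5:124110658, held 73, 47 and 74 and then 41, 27 and 39 counts in injured IP, and 26, 30 and 22 and then 14, 16 and 13 in injured input. Both changed by 1.03 log2, with adjusted p of 0.013 and 0.0343. The first call was lost without IP injury 1 (adjusted p = 0.071) or IP injury 3 (0.0678), and the second without either of these or any injured input library (0.0614 to 0.141). The ERVK window chr9:61954674-61954699, opposite the progestin receptor family gene Paqr5, held 35, 24 and 41 counts in injured IP and 14, 11 and 14 in injured input (1.06 log2, adjusted p = 0.0352). It was lost without IP injury 1 or 3 or input injury 1 or 2, at adjusted p of 0.0694 to 0.155. The ERV1 calls included the equal windows chr4:133098159 and chr8:90888494, which both held 713, 620 and 681 counts in injured IP and 397, 455 and 307 in injured input (0.52 log2, adjusted p = 0.0116; 0.0711 without IP injury 1). Chd9, which holds the chromosome 8 window in an intron, was not called in injured ganglia (0.16 log2, adjusted p = 0.252). The remaining ERVK and ERV1 calls, chr17:36317660 at 0.85 log2 and chr18:82698656 at 0.80 log2, were lost in 8 and 10 of the 12 fits without 1 library, and are named after their values were seen.

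The counts of IP against input depended on single libraries. In naive ganglia 53 members were called in all, 34 without IP naive 1 and 34 without IP naive 3. In injured ganglia 54 were called, with 32 without IP injury 1, 26 without IP injury 3 and 35 without input injury 2. Without both input libraries numbered 3 the counts were 74 in each state.

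The loci with the highest level were read in all groups. The ERV1 locus chr3:92690808-92691158, 650 bases from Gm4202, stood at 20.8 ± 0.674 CPM in naive IP, 19.3 ± 2.02 in injured IP, 18.8 ± 5.65 in naive input and 14.6 ± 4.73 in injured input. The ERVK locus chr10:96161040-96161604, 2727 bases from Gm22913, stood at 18.3 ± 1.45, 19.6 ± 1.34, 17.7 ± 1.84 and 16.7 ± 1.098 CPM in the same order. The twin ERV1 loci of chromosomes 4 and 8 that begin at 133098159 and 90888494 stood at 33.3 ± 3.36, 27.4 ± 1.43, 26.6 ± 4.54 and 19.9 ± 3.46 CPM each. Without the replicate block, none of the windows named for their level was called for injury in either fraction. With it, the ERVK window chr7:48161114 was lower after injury in IP (−0.52 log2, adjusted p = 0.000249) and in input (−0.57 log2, adjusted p = 0.000191), and the twin ERV1 windows at 133098159 and 90888494 were lower in input (−0.46 log2, adjusted p = 0.00113).

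A list of 34 genes tied to the silencing of retroviruses was read beside the windows. It holds genes that place silencing marks and genes that remove them, among the latter Tet1, Tet2 and Tet3. In injured IP 4 rose and 0 fell, near the share of all 15738 genes, of which 11.6% rose and 7.13% fell. Tet3, a dioxygenase that removes DNA methylation, rose from 29.8 ± 2.5 to 59.9 ± 8.34 CPM (1.01 log2, SE 0.12, adjusted p = 5.54e-05). Kdm1a, a histone demethylase, rose by 0.31 log2 (adjusted p = 0.0105), Morc2a, an ATPase that works with the HUSH complex, by 0.32 (0.0259) and Sumo2, a protein modifier, by 0.35 (0.0454). Setdb1, at 0.14 log2 (adjusted p = 0.21), and Trim28, at 0.03 log2 (adjusted p = 0.868), were not called. In input 2 rose and 1 fell, where 7.8% of genes rose and 8.27% fell. Relative to input, naive IP had 5 of the 34 genes higher with 8 lower, where 15.1% of all genes were higher and 25.9% lower. Injured IP had 6 higher with 7 lower, where 21.4% and 24.5% of all genes were. These counts are near the shares of all genes. In the interaction 0.0635% of genes were called, 0 of them on these lists.

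Of 26 genes that sense or restrict retroviral RNA and DNA, 7 rose and 0 fell in injured IP, where 11.6% of all genes rose. In injured input 5 rose and 0 fell, where 7.8% of all genes rose. Zc3hav1, the zinc finger antiviral protein, rose from 25.4 ± 1.11 to 39.9 ± 2.73 CPM in IP (0.65 log2, SE 0.084, adjusted p = 0.000132). Tmem173, the DNA sensing adaptor STING, rose by 1.65 log2 in IP (SE 0.23, adjusted p = 0.000216) and 1.33 log2 in input. Trim30a, a regulator of innate signalling, rose by 1.60 log2 (adjusted p = 0.00394), and Trex1, a cytosolic DNA exonuclease, by 0.51 log2 (adjusted p = 0.00592). Relative to input, naive IP had 2 of the 26 higher with 11 lower, where 15.1% of genes were higher and 25.9% lower, and 3 were higher and 13 lower in injured IP, where 21.4% and 24.5% were. The macrophage markers above moved in the same direction, and their part in these rises was not tested. Of 5 tested genes for retrovirus receptors and captured envelopes, Slc7a1, the receptor of ecotropic murine leukemia virus, rose by 0.35 log2 in IP (adjusted p = 0.00863) and Slc20a1, a phosphate transporter used by gibbon ape leukemia virus, by 0.19 log2 (adjusted p = 0.0323), and neither was called in input.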

How the data were processed

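Ribosome-bound (IP) and input RNA was sequenced from 12 libraries in 4 groups of 3, grouped by their titles. Per the labels' protocols, libraries were strand-marking with ribosomal RNA depletion. bcl2fastq 2.17, HTSeq, STAR, GRCm38 and mm10 are listed in the submitters' processing notes. The authors deposited raw counts per gene and raw counts per interval, with no normalization. How intervals were chosen, and how reads that match many copies were counted, is not stated in the labels or headers. Columns of no sample numbered 0. Of the gene names, 27 had become dates (0.191% to 0.214% of counts) and were left out, leaving 24033 entries.

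Counts of all intervals were tested with edgeR 4.0.16 (R 4.3.3; robust quasi-likelihood fit, 12 libraries, 4 group means, 8 residual degrees of freedom) with the library sizes and TMM factors of the gene table, after filterByExpr, with Benjamini-Hochberg adjustment over the 23162 intervals tested at a threshold of 0.05. Summed levels have no test. The fit was tested on simulated data. The alternatives were DESeq2 1.42.0, limma-voom (limma 3.58.1), 2 other scalings, no filter, counts summed per locus, the 6 compared libraries only, a replicate block and leaving out each library. A fit with 1 interval per set of equal counts, and fits without the input libraries numbered 3 or the naive libraries numbered 2, were chosen after seeing the data. Windows named are, per comparison, the loci with the largest change among called members without overlap (6 each way for injury, 5 for IP against input) and the 8 loci with the highest level. From each gene list the 4 genes with the smallest p are named. Some windows that were analysed are not reported here. Members and lists were chosen with earlier results of these data known.

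The design takes both ganglia from each animal. Over genes, deviations from the group mean of same-numbered naive and injured libraries correlated at 0.51, 0.43 and 0.28 in IP and at 0.39, 0.57 and 0.74 in input. Over the tested intervals the same pairs stood at 0.07, 0.21 and 0.07 in IP and at 0.04, 0.12 and 0.48 in input. There naive input 2 correlated at 0.36 with injured input 1. The numbers thus go with a pairing within a fraction over genes, which the intervals do not settle. No label says which libraries came from separate animals, so p-values reflect only the spread among libraries, perhaps partly technical. Intervals and floors cover counting error only, and the counts per window set the precision.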

Additional observations from a re-analysis of the deposited data

How the results depend on the processing

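The counts of called members, 15 and 12 for injury in IP and in input and 53 and 54 for IP against input in naive and injured ganglia, stayed within 1.5 times under DESeq2, limma-voom, 2 other scalings, no filter, sums per locus and 1 window per set of equal counts. With the 6 compared libraries only they were 27 for injury in IP and 4 for injury in input, and with the replicate block 29 and 30. The block gave 52 and 45 for IP against input, where the numbers do not pair the samples. Without both input libraries numbered 3 the count for injury in IP was 25. Without both naive libraries numbered 2 it was 8, for injury in input 6, and for naive IP against input 30. The cause was not tested. Leaving out 1 library gave 8 to 19, 6 to 18, 34 to 74 and 26 to 68. The interaction had 0 calls under every setting run except no filter, which gave 1. The summed ERVK level of injured IP over input changed sign with library size alone (−0.072 against 0.077 log2). Without its 10 most abundant windows ERV1 stood at 0.12 log2 for injury in IP (−0.06 with them) and at −0.42 and −0.45 for IP against input in naive and injured ganglia (−0.07 and −0.09). Without 1 library the ERVK sums ran from −0.14 to −0.08, −0.25 to −0.11, −0.07 to 0.06 and 0.00 to 0.14, and the ERV1 sums from −0.08 to −0.02, −0.14 to 0.08, −0.14 to 0.02 and −0.21 to 0.01. Of the 33 named results 0 reversed, 33 kept their call under DESeq2, 27 under limma-voom, 24 of 30 with the 6 compared libraries only and 24 without both naive libraries numbered 2.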

Other observations

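A further 366 ERVK and ERV1 windows lie in or beyond a 3′ untranslated region in the deposited annotation and were left out of the comparisons above. Of these, 67 passed the filter on low counts. In injured IP 1 was higher and 1 lower, and in injured input 0 were higher and 1 lower. Over all intervals 2.01% were higher and 0.38% lower in injured IP, and 1.89% and 1.53% in injured input. In naive IP against input 1 was higher and 7 lower, with a median of −0.11 log2, and in injured ganglia 1 was higher and 7 lower, with a median of 0.08 log2. Over all intervals 2.29% were higher and 10.2% lower in naive ganglia, and 4.79% and 9.69% in injured ganglia. The 7 lower windows were 10.4% of the 67 in each state, near these shares. The ERVL-MaLR family, another group of endogenous retroviruses, had 191 tested windows, with 3 higher and 3 lower in IP of naive ganglia, then 15 higher and 2 lower after injury. In the same comparisons the L1 family had 136 tested windows, with 1 higher and 15 lower in naive and 9 higher and 12 lower in injured ganglia.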
